A study of Gallus gallus with 8 samples.

Results

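Toll-like receptors sense molecules of microbes, and the genes described here are 4 such receptors (TLR3, TLR4, TLR5 and TLR15), the co-receptor CD14, and the proteins that carry their signal into the cell: the adaptors MYD88 and TICAM1, the kinases IRAK2 and IRAK4, and the ubiquitin ligase TRAF6. They were chosen by gene name, and all 10 were found, each once, among the 13427 genes of the expression table. Liver was taken from 21-day-old broilers 2 h after an intraperitoneal injection of Escherichia coli lipopolysaccharide (LPS, a glycolipid in the outer membrane of Gram-negative bacteria) at 1 mg/kg body weight, or of the same volume of phosphate-buffered saline. Polyadenylated RNA was fragmented and sequenced after immunoprecipitation with an antibody against N6-methyladenosine (m6A, a methyl mark on adenosines inside messenger RNA), giving the IP libraries, and without it, giving the input libraries. The 8 libraries form 4 groups of 2, namely LPS input, LPS IP, control input and control IP. Whether both libraries of a group are from different birds, or from pools, is not in the labels, and p-values cover only the spread among these libraries, which may be technical.

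TLR4 recognises LPS together with its partner LY96 (also called MD-2), after CD14 has handed the LPS over. The activated receptor recruits adaptors through a shared TIR domain. In mammals MYD88 assembles the IRAK kinases and TRAF6 into a path to NF-kB that nearly all Toll-like receptors use, while TICAM1, also called TRIF, serves TLR3 and TLR4 and leads towards interferon genes. In liver, resident macrophages (Kupffer cells) and endothelial cells are known carriers of Toll-like receptors, and hepatocytes make up most of the tissue.

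Gene levels are FPKM of the input libraries, fragments scaled for gene length and library size, so that levels can be set side by side between genes. The libraries of a group resembled each other across the 9484 tested genes (Spearman correlation 0.9747 in LPS and 0.9653 in control). Hepatocyte markers were abundant and summed to 82339 and 81768 FPKM in LPS and 74203 and 71361 FPKM in control libraries. Of the 11 found and tested, 4 were higher (FGA, FGB, FGG and TF) and 2 lower (TTR and AHSG), beside 10.7% and 31.4% of all tested genes. At equal medians 5 were higher and 1 lower, beside 14.1% and 16.8%. Absolute depth is unknown, and depth relative to control library 1 was 0.818 and 0.891 in LPS libraries 1 and 2 and 0.858 in control library 2. The median log2 difference of all tested genes was −0.34, and −0.07 once the libraries were scaled to equal medians, so changes are given on both scales where the call differs.

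Both LPS libraries lay above both control libraries for 3 of the 10 genes (TLR3, MYD88 and TRAF6), as they did for 16.6% of all genes and 18.4% of those tested. They lay below for 6 (TLR4, TLR5, CD14, TICAM1, IRAK2 and IRAK4), against 49.1% of all genes and 55.8% of those tested. The ranges of TLR15 overlapped. Of the 9 that reached the filter of a mean of 1 FPKM, MYD88 and TRAF6 rose (10.7% of tested genes rose) and TLR4, TLR5, TICAM1 and IRAK4 fell (31.4% of tested genes fell), in limma on log2(FPKM + 1) with a Benjamini-Hochberg adjusted p under 0.05. TLR3, TLR15 and IRAK2 did not pass, and CD14 was below the filter. The median log2 difference of the 9 was −0.56. With 2 of 9 higher and 4 of 9 lower, the set held changes in both directions, and its counts are too small to set it apart from all tested genes.

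**Figure D1:**
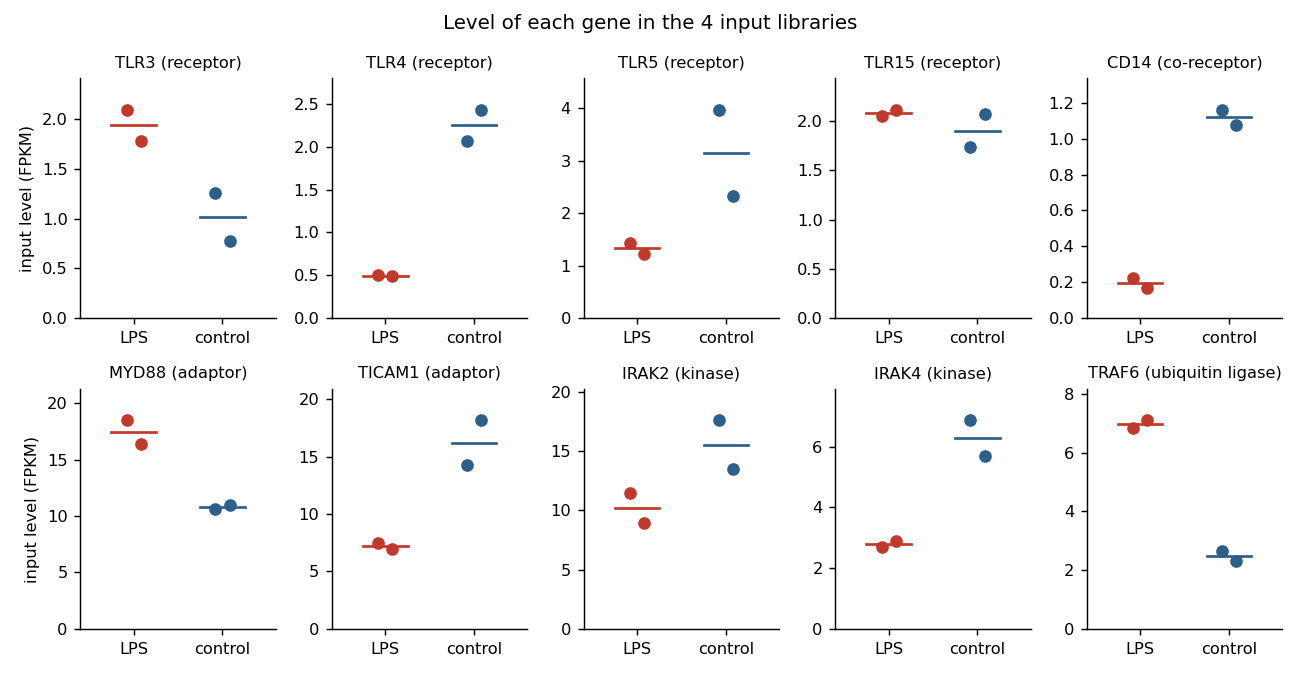
Input level in FPKM (vertical axes from 0, each gene on its own scale) in the 2 LPS libraries (red) and the 2 control libraries (blue). Points are libraries and lines are means. TLR3, MYD88 and TRAF6 lie higher in both LPS libraries, TLR15 overlaps, and the other 6 genes lie lower.

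Among the receptors, TLR4, the receptor for LPS itself, was at 0.499 and 0.492 FPKM in LPS libraries, against 2.07 and 2.43 FPKM in control libraries. The LPS libraries were close to each other and far below both controls, with a mean level 0.220 times that of control. The log2 difference was −1.12 (SE 0.22, limma adjusted p = 0.00617). TLR4 passed the filter through its control level, and since the added 1 FPKM shrinks changes of low genes, the difference was −1.98 with 0.1 FPKM added instead (adjusted p = 0.00838).

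CD14, the membrane or soluble protein that passes LPS to TLR4, had the lowest LPS level of the 10 genes, 0.221 and 0.168 FPKM, against 1.16 and 1.08 FPKM in control libraries. Its groups did not overlap, and its mean level after LPS was 0.174 times that of control. It was not tested under the filter of 1 FPKM, and it reached a filter of 0.5 FPKM only through its control level. With that filter its log2 difference was −0.83 (SE 0.20, limma adjusted p = 0.0157, where 10.1% of tested genes rose and 29.6% fell), and at equal medians it was −0.72 (adjusted p = 0.0326).

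LY96, the protein beside TLR4 whose pocket binds LPS, moved in the opposite direction. It was at 2.47 and 2.24 FPKM in LPS libraries and 0.926 and 0.743 FPKM in control libraries, and it rose (log2 difference 0.87, limma adjusted p = 0.0158), though it passed the filter only through its LPS level. LY96 thus stood at 4.95 and 4.56 times the level of TLR4 in LPS libraries, against 0.448 and 0.306 times in control libraries.

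TLR5, the receptor for bacterial flagellin, was at 1.43 and 1.23 FPKM in LPS libraries and at 3.97 and 2.33 FPKM in control libraries. Both LPS values lay below both controls, though the controls differed widely from each other. Its fall of 0.80 on the log2 scale (SE 0.26, limma adjusted p = 0.0380) did not pass at equal medians (limma adjusted p = 0.107) or with no filter on low values (adjusted p = 0.0772). Nor did it pass when control library 1 was left out (adjusted p = 0.131), when LPS library 1 was (0.0547) or when LPS library 2 was (0.112). The log2 difference ran between −0.52 without control library 1 and −1.09 without control library 2.

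TLR3 recognises double-stranded RNA, as formed by many viruses. It was at 2.10 and 1.78 FPKM in LPS libraries and at 1.26 and 0.778 FPKM in control libraries, higher in both LPS libraries. The log2 difference of 0.55 (95% interval 0.0027 to 1.10) did not pass over all genes (limma adjusted p = 0.0961), but did at equal medians (0.73, adjusted p = 0.0451, where 14.1% of tested genes were higher). TLR3 stood at 4.20 and 3.62 times the level of TLR4 in LPS libraries, against 0.608 and 0.320 times in control libraries. That shift was not particular to TLR3. TLR15, whose own groups overlapped, stood at 4.12 and 4.29 times the level of TLR4 in LPS libraries, against 0.837 and 0.853 times in control libraries.

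TLR15, a receptor known from birds and reptiles that responds to microbial proteases, was at 2.05 and 2.11 FPKM in LPS and 1.73 and 2.07 FPKM in control libraries. The groups overlapped. The log2 difference was 0.09, with a 95% interval of −0.41 to 0.59 (limma adjusted p = 0.753), which leaves room for a moderate change in either direction.

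The table names 9 Toll-like receptors in all, and their summed level was 11.95 and 13.2 FPKM in LPS libraries, against 18.3 and 15.96 FPKM in control libraries. The median log2 difference of the 7 tested was 0.06, against −0.34 for all tested genes. None was called higher and 2 lower (1 and 1 at equal medians), beside 10.7% and 31.4% of all tested genes (14.1% and 16.8%). Of the 5 besides TLR3, TLR4, TLR5 and TLR15, TLR2-2, a receptor for bacterial lipoproteins, was at 0.130 and 0.155 FPKM in LPS libraries, against 1.65 and 1.42 FPKM in control libraries. Its mean was below 1 FPKM and reached 0.5 FPKM only through its control level, and with that filter the log2 difference was −1.15 (limma adjusted p = 0.00441). TLR21, which senses bacterial DNA in chickens, was at 0.948 and 0.686 FPKM in LPS and 1.49 and 2.16 FPKM in control libraries (adjusted p = 0.0684). TLR21 passed the filter only through its control level. TLR1LA and TLR1LB did not pass (adjusted p = 0.854 and 0.656), and TLR7 was too low for the test, at 0.153 and 0.131 FPKM in LPS and 0.495 and 0.347 FPKM in control libraries. TLR1LA, TLR1LB and TLR2-2 have close relatives in the genome. How reads that match several of these were counted is not stated and was not examined, so their separate values are uncertain.

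In bulk tissue, fewer cells of a type and less RNA per cell cannot be told apart. TLR4, TLR5 and CD14 had lower levels after LPS, though TLR5 did not pass at equal medians and CD14 was below the filter. Beside them, 6 of the 7 macrophage markers found passed as lower, against 31.4% of all tested genes. The same number passed at equal medians, against 16.8%, with the scavenger receptor MARCO the most abundant, and the list summed to 344 and 268 FPKM in LPS and 596 and 579 FPKM in control libraries, none of the 7 being at 0. The mean levels of those 6 after LPS were 0.309 to 0.532 times control. The remaining marker, LYG2, was at 1.26 times control with overlapping groups. The mean level of TLR5 relative to control (0.423) lay within the range of those 6, as did those of TICAM1 (0.443) and IRAK4 (0.445). These ratios also lay within the 0.419 to 0.503 of the endothelial markers that passed as lower. The 3 endothelial markers that did not pass, LYVE1 (0.614), PECAM1 (0.790) and STAB2 (0.881), lay above that range. Both ranges thus hold only markers that were called lower. Relative to control, TLR4 (0.220) and CD14 (0.174) lay below both ranges. Their levels were low (means of 0.495 and 0.195 FPKM in LPS libraries), and no test of that difference was made. Endothelial markers fell in 4 of 7 (against 31.4% of all tested genes), or in 2 of 7 at equal medians (against 16.8%). Their sums were 58.1 and 44.0 FPKM in LPS and 99.999 and 83.4 FPKM in control libraries. Of 5 granulocyte markers 1 was higher, against 10.7% of tested genes (2 at equal medians, against 14.1%), their sums being 40.4 and 17.1 FPKM in LPS and 12.2 and 24.4 FPKM in control libraries. The marker called as deposited, MMP9, passed the filter only through its LPS level (3.21 and 3.70 FPKM, against 0.113 and 1.09 FPKM in control libraries). The part of cell makeup in the receptor levels was not tested.

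The 2 adaptors moved in opposite directions. MYD88 was at 18.5 and 16.4 FPKM in LPS libraries and 10.6 and 10.95 FPKM in control libraries, higher in both LPS libraries. It rose by a log2 difference of 0.64 (SE 0.18, limma adjusted p = 0.0236), a mean level 1.62 times control. At equal medians the difference was 0.93 (adjusted p = 0.00566), but with any single library left out the call ended (adjusted p = 0.168 when LPS library 1 was left out, 0.0701 for LPS library 2, 0.0591 for control library 1 and 0.05004 for control library 2).

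TICAM1 was at 7.45 and 6.93 FPKM in LPS libraries, against 14.3 and 18.2 FPKM in control libraries. Both LPS values lay far below both controls. It fell by 1.06 on the log2 scale (SE 0.20, limma adjusted p = 0.00455), to a mean level 0.443 times control. The order of the adaptors was therefore the reverse in the 2 states: MYD88 stood at 2.48 and 2.36 times the level of TICAM1 in LPS libraries, against 0.742 and 0.603 times in control libraries.

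Behind MYD88, the kinases and TRAF6 also diverged. IRAK4, the first kinase to join MYD88, was at 2.70 and 2.89 FPKM in LPS and 6.86 and 5.69 FPKM in control libraries. Its groups were well apart, and it fell by 0.93 on the log2 scale (SE 0.20, limma adjusted p = 0.00903). IRAK2, which the table describes as an IRAK-like kinase and which in mammals acts after IRAK4 to engage TRAF6, was at 11.5 and 8.89 FPKM in LPS and 17.6 and 13.4 FPKM in control libraries. Both LPS values were below both controls, yet the spread within each group was wide and the log2 difference of −0.56 (95% interval −1.06 to −0.06) did not pass (limma adjusted p = 0.0710). At equal medians it was −0.27 (adjusted p = 0.372).

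TRAF6, the ubiquitin ligase that the IRAK complex activates, had the largest rise of the 10 genes. It was at 6.82 and 7.09 FPKM in LPS libraries and 2.66 and 2.30 FPKM in control libraries. The libraries of each group were close and the groups far apart. The log2 difference was 1.19 (SE 0.20, limma adjusted p = 0.00288), larger than that of 94.0% of all tested genes. The mean level was 2.80 times control. TRAF6 stood at 2.53 and 2.45 times the level of IRAK4 in LPS libraries, against 0.388 and 0.405 times in control libraries. TLR4, TICAM1, IRAK4 and TRAF6 were the 4 genes of the set whose calls held in all 10 alternative fits.

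**Figure D2:**
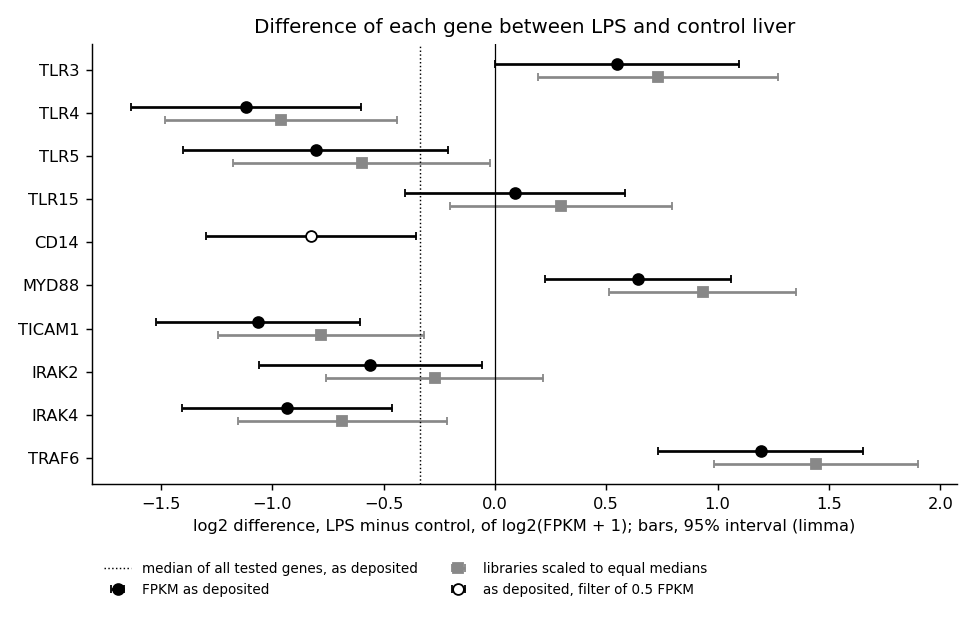
Log2 difference, LPS minus control, of log2(FPKM + 1) for each gene, with the 95% interval of limma (bars), on the deposited FPKM (circles) and with libraries scaled to equal medians (squares). CD14 (open circle) is shown from the fit with a filter of 0.5 FPKM, and the dotted line is the median of all tested genes at −0.34. As deposited, TRAF6 lies farthest right at 1.19 and TLR4 farthest left at −1.12.

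Ordered by input RNA level, the genes for proteins inside the cell stood above those for the receptors in LPS liver. MYD88 led in LPS libraries at a mean of 17.4 ± 1.48 FPKM (SD, n = 2), followed by IRAK2 (10.2 ± 1.83 FPKM), TICAM1 (7.19 ± 0.368 FPKM) and TRAF6 (6.96 ± 0.194 FPKM), the ranges of the last pair overlapping. IRAK4 (2.79 FPKM), TLR15 (2.08 FPKM), TLR3 (1.94 FPKM), TLR5 (1.33 FPKM), TLR4 (0.495 FPKM) and CD14 (0.195 FPKM) came after. Among these 6, TLR15 and TLR3 were the only neighbours whose ranges overlapped.

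In control libraries TICAM1 led at 16.2 ± 2.72 FPKM (SD, n = 2), overlapping with IRAK2 (15.5 ± 2.92 FPKM), with MYD88 after them (10.8 ± 0.240 FPKM) and IRAK4 next (6.27 ± 0.831 FPKM). TLR5 (3.15 FPKM), TRAF6 (2.48 FPKM), TLR4 (2.25 FPKM) and TLR15 (1.90 FPKM) followed, and the ranges of neighbours among these 4 overlapped. CD14 (1.12 FPKM) and TLR3 (1.02 FPKM) came last, below the range of TLR15, and overlapped with each other. Against all 13427 genes, MYD88 stood at the 79.9th percentile of level in LPS and the 68.3rd in control liver, TRAF6 at the 63.9th and the 40.4th, and TLR4 at the 25.3rd and the 39.0th.

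Other genes of the pathway were taken from a list of 66 names, of which 47 further genes were matched and 45 were tested. Of these, 14 rose, 10 fell and 21 did not pass, beside 10.7% higher and 31.4% lower among all tested genes, and the list median was −0.07 against −0.34. At equal medians 16 were higher and 9 lower, where 14.1% of all tested genes were higher and 16.8% lower. The list was chosen with earlier results of these data known, so its counts are a description and cannot set the pathway apart. The table's own KEGG labels, consulted after the values were seen, mark 34 genes besides the set described here as Toll-like receptor signalling. Several of them, MAP3K8, TRAF3, NFKB1, IRF-3 and IRF5 included, are also among the 47, so these counts are not independent of those above. Of the 34, 29 were tested, 11 rose and 4 fell, with 11 higher and 2 lower at equal medians.

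The counts by role that follow rest on few genes each, beside 10.7% higher and 31.4% lower among all tested genes. None of the 3 further receptors tested passed. Of the 6 genes that handle ligands or act as co-receptors, LY96 rose and 4 fell. LY86 (also called MD-1), the partner of the receptor homologue CD180, was at 17.0 and 13.5 FPKM in LPS and 41.4 and 37.6 FPKM in control libraries (log2 difference −1.33, limma adjusted p = 0.00153). The scavenger receptor CD36 (−1.28), the integrin subunit ITGB2 (−1.25) and HMGB1, a nuclear protein that acts as a danger signal outside the cell (−0.997), fell too, and CD180 did not pass.

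Genes that fold and move the receptors fell in 3 of 4. HSP90B1, the endoplasmic reticulum chaperone that Toll-like receptors need for folding, was at 228 and 161 FPKM in LPS libraries, against 1270 and 783 FPKM in control libraries (log2 difference −2.37, limma adjusted p = 0.000554). Its co-chaperone CNPY3 was at 45.0 and 45.8 FPKM in LPS and 142 and 172 FPKM in control libraries (−1.76, adjusted p = 0.000308). For both, the LPS libraries lay far below the control libraries. UNC93B1, which escorts nucleic acid-sensing receptors to endosomes, fell by 0.67 on the log2 scale but did not pass once medians were equalised (adjusted p = 0.244), and the endosomal GTPase RAB7A did not pass.

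Of the 4 other adaptors, PIK3AP1, which links Toll-like receptors to phosphoinositide 3-kinase (log2 difference 1.43), and TRAF3, which relays the TICAM1 branch (1.39), rose. TRAF3 was at 3.41 and 2.92 FPKM in LPS and 0.789 and 0.405 FPKM in control libraries, and it passed the filter only through its LPS level. TIRAP, which bridges TLR4 to MYD88, was at 13.4 and 18.2 FPKM in LPS and 16.9 and 18.3 FPKM in control libraries, its groups overlapped, and it did not pass (limma adjusted p = 0.561). SARM1, a TIR protein that cleaves NAD, passed at equal medians (adjusted p = 0.0241) and not as deposited (0.0689).

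Of the 14 further kinases and ubiquitin enzymes, 3 rose and 1 fell. PELI2, a ubiquitin ligase that in mammals acts on IRAK proteins, rose by 3.74, MAP3K8, a kinase upstream of MAP kinases, by 1.82 and the IKK-related kinase IKBKE by 1.42 on the log2 scale. BTK, a tyrosine kinase of myeloid and B cells, fell by 1.44. The TRAF6 partners MAP3K7 (TAK1), TAB1, TAB2, TAB3, UBE2N and UBE2V1 did not pass. Their log2 differences lay between −0.50 and −0.30.

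Among 8 inhibitors, TNIP3 (5.06), TNIP2 (4.87), TNFAIP3 (3.47) and TNIP1 (2.22), which restrain NF-kB through ubiquitin, rose. TNIP3 was at 29.0 and 50.5 FPKM in LPS libraries, against 0.395 FPKM and a value listed at 0 in control libraries, and it too passed the filter only through its LPS level. TNFAIP3, also called A20, was at 33.1 and 32.1 FPKM in LPS and 1.70 and 2.38 FPKM in control libraries. SIGIRR, a receptor with a TIR domain that dampens Toll-like receptor signals, fell by 2.25, at 9.53 and 7.34 FPKM in LPS and 41.3 and 46.0 FPKM in control libraries. TOLLIP, CYLD and TANK did not pass, CYLD passing at equal medians (adjusted p = 0.0312).

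Transcription factors at the end of the pathway rose in 4 of 6. The gene listed as IRF-3, whose RefSeq protein carries the symbol IRF7, rose by 2.76, IRF1 by 2.76, NFKB1 by 1.97 and REL by 0.92 on the log2 scale, and IRF5, which acts with MYD88, fell by 0.97. IRF8 did not pass (limma adjusted p = 0.872).

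**Figure D3:**
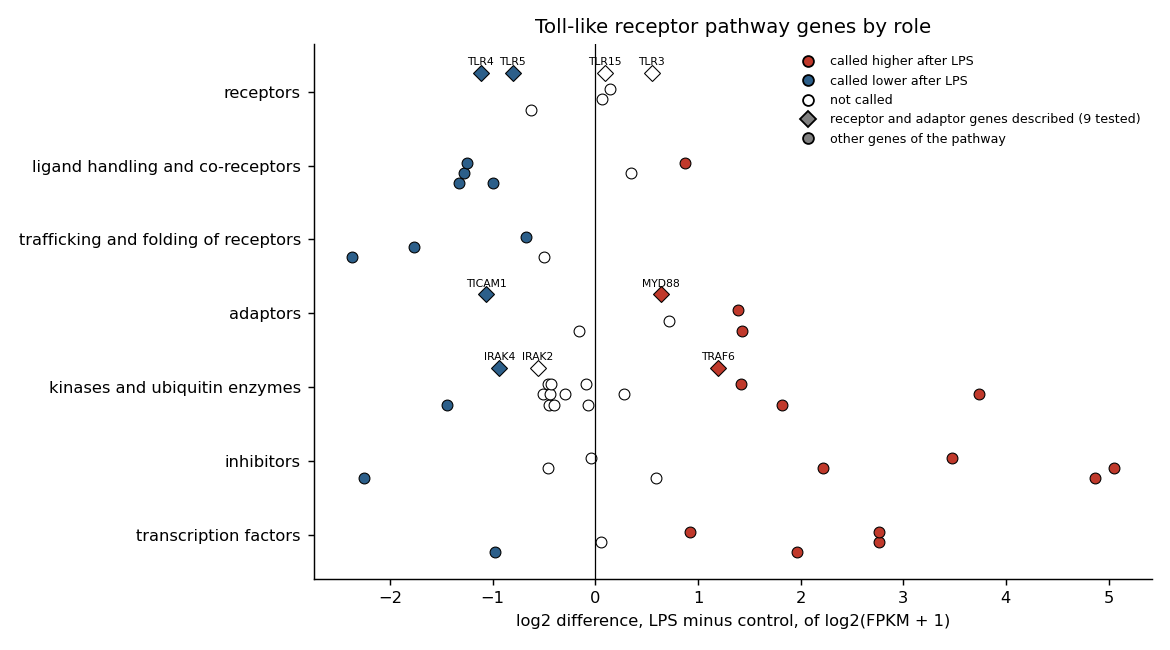
Log2 difference, LPS minus control, of log2(FPKM + 1) for tested genes of the pathway, by role. Diamonds are the receptor and adaptor genes described here (9 tested) and circles the 45 other genes, red for called higher, blue for called lower and white for not called. The inhibitors TNIP3 and TNIP2 lie farthest right, and the chaperone HSP90B1 and the receptor SIGIRR farthest left.

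The m6A peaks were given by the authors as 1 list for each state, IP against input, with a fold enrichment and a p for each peak that are the authors' own. Lists of that kind allow no replicate check, so the values below carry no error and no test. The LPS list held 5938 distinct peaks and the control list 7813. Of the 10 genes, 3 had a peak in the LPS list (MYD88, TICAM1 and TRAF6) and 4 in the control list (the same and IRAK2), against 29.7% and 37.5% of all genes in the table. The LPS list held 3 peaks of the set, all of which shared bases with a control peak (87.6% of all LPS peaks did). Of the 5 control peaks, 3 were shared with the LPS list, against 64.1% of all control peaks. These shares were near those of the whole lists. TLR3, TLR4, TLR5, TLR15, CD14 and IRAK4 had no peak in either list.

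MYD88 had a peak in its 3′ UTR in both states. In the LPS list the MYD88 peak ran over 210 bases (chromosome 2, 4812303 to 4812512, plus strand) with a fold enrichment of 2.49 (the authors' p = 6.3e-26), and in the control list over 360 bases (4812243 to 4812602) with a fold enrichment of 5.2 (the authors' p = 3.2e-76). No source used here gives the genome build of these positions. The LPS peak lay wholly inside the control peak, 1082 to 1291 genomic bases before the annotated 3′ end of the gene. Enrichment was thus lower after LPS while the input level was higher. The log2 ratio of the fold enrichments was −1.06, below the median of −0.25 over 4925 shared pairs of peaks and at the 10.9th percentile among them.

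TRAF6 showed the opposite pairing. Its peak lay in the last of 7 annotated exons. In the LPS list it ran over 240 bases (chromosome 5, 18776892 to 18777131, minus strand) with a fold enrichment of 5.83 (the authors' p = 1.6e-44), and in the control list over 91 bases (18776952 to 18777042) with a fold enrichment of 3.33 (the authors' p = 3.3e-07). The LPS peak enclosed the control peak and lay 509 to 748 bases before the annotated 3′ end. The log2 ratio of 0.81 stood at the 96.5th percentile of shared pairs, in a gene whose input level was also higher after LPS (6.96 ± 0.194 FPKM, against 2.48 ± 0.256 FPKM in control, SD, n = 2).

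TICAM1, a gene annotated with 1 exon, had 2 peaks in the control list and 1 in the LPS list. The stronger control peak lay in the 3′ UTR, 30 to 327 bases before the 3′ end (chromosome 28, 4627411 to 4627708, plus strand). Its fold enrichment of 11.7 (the authors' p = 1e-114) was the highest of the set and above 77.6% of control peaks, and no LPS peak overlapped it. The weaker peak, inside the exon, ran over 60 bases in the LPS list (4626966 to 4627025, fold enrichment 2.50, the authors' p = 2.8e-08) and over 150 bases in the control list (4626906 to 4627055, fold enrichment 1.97, p = 5e-17). The log2 ratio of that pair was 0.34, above 87.2% of shared pairs. Like that of TRAF6, the pair did not count as shared under the stricter rules of overlap and p. The mean input level of TICAM1 was 7.19 FPKM in LPS and 16.2 FPKM in control liver.

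IRAK2 had a peak in the control list alone, in the 3′ UTR over 269 bases (chromosome 12, 19429963 to 19430231, plus strand), 1372 to 1640 bases before the 3′ end. Its fold enrichment of 3.05 (the authors' p = 5e-24) was above 22.9% of control peaks. Apart from the 3′ UTR peak of TICAM1, the control peaks of the set lay above 6.76% to 47.5% of control peaks by fold enrichment. The 2 peaks of the set with no LPS counterpart, in IRAK2 and TICAM1, were both in 3′ UTRs, where 66.5% of all control peaks were shared with the LPS list.

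**Figure D4:**
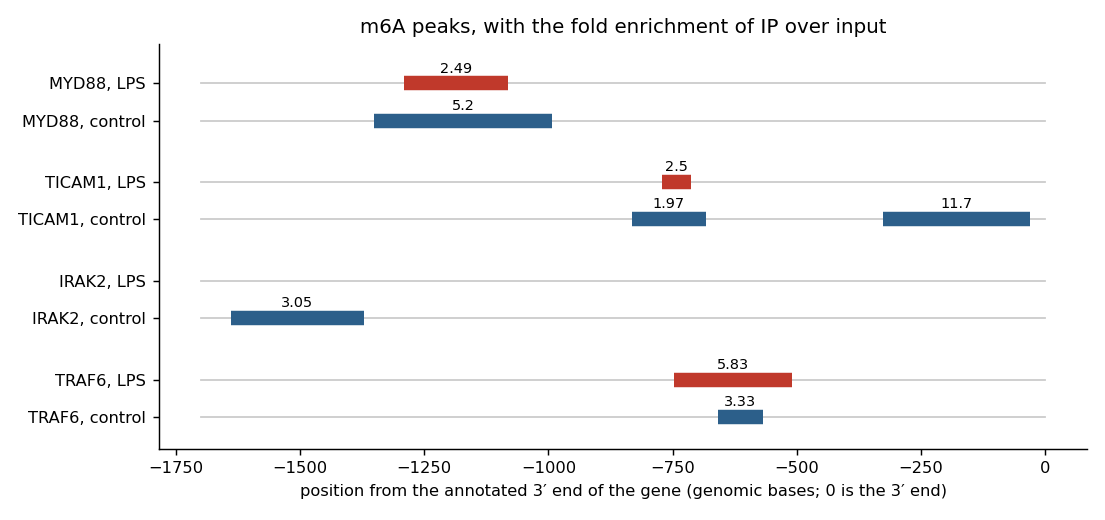
Position of the m6A peaks of MYD88, TICAM1, IRAK2 and TRAF6, as genomic bases before the annotated 3′ end of each gene (0), in the LPS list (red) above the control list (blue). The number at each bar is the authors' fold enrichment of IP over input. The 3′ UTR peak of TICAM1 (11.7) and the peak of IRAK2 (3.05) have no bar in the LPS rows.

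Peaks were found more often in genes of higher level. In the LPS list 3.32% of genes above 0 and below 1 FPKM had a peak, a range that held TLR4 and CD14, 14.4% of those from 1 to 2 FPKM (TLR3 and TLR5) and 27.8% of those from 2 to 5 FPKM (TLR15 and IRAK4), and none of these 6 genes had one. From 5 to 10 FPKM 45.7% had one, as did TICAM1 and TRAF6. From 10 to 20 FPKM 54.1% had one, as did MYD88, while IRAK2, at a mean of 10.2 FPKM in LPS libraries, did not. In the control list 21.8% of genes from 1 to 2 FPKM had a peak, a range that held TLR3, TLR15 and CD14, and 38.7% of those from 2 to 5 FPKM, where TRAF6 had one and TLR4 and TLR5 did not. From 10 to 20 FPKM the share was 61.4%, and MYD88, TICAM1 and IRAK2 all had peaks. IRAK4, at 6.27 FPKM in control liver, had none where 52.2% of genes did. The missing peaks of the receptors therefore stand beside low input levels, and the part of level in them was not tested.

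**Figure D5:**
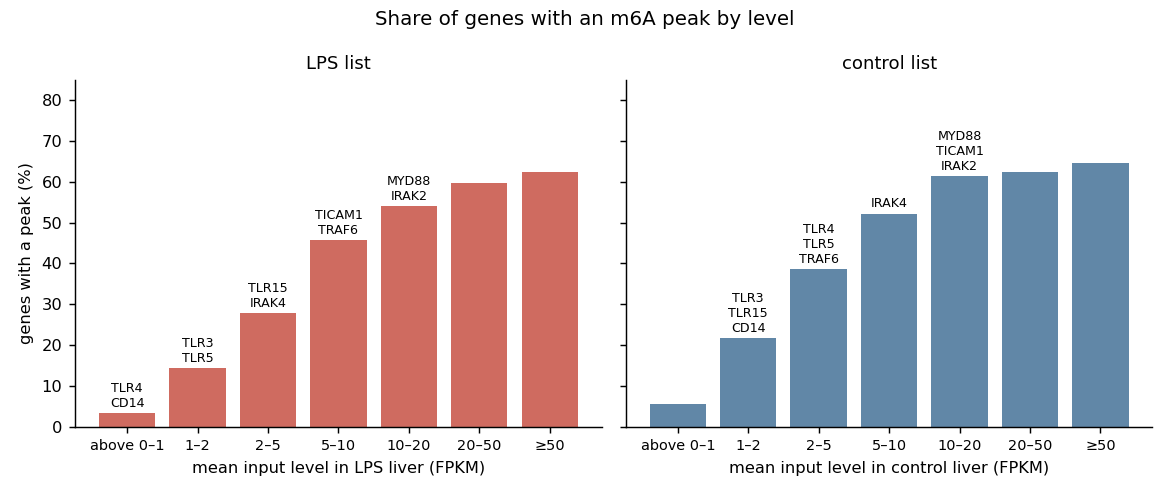
Share of genes with an m6A peak (vertical axes, percent) by mean input level in FPKM, for the LPS list (left) and the control list (right). Names stand above the bar of the level range that holds each of the 10 genes. The share grows with level, from 3.32% to 62.3% in the LPS list and from 5.65% to 64.6% in the control list.

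Among all 9 Toll-like receptors, 0 had a peak in the LPS list and 2 in the control list, namely TLR21 (fold enrichment 10.7) and TLR1LB (3.19). Of the 47 other pathway genes, 24 had a peak in the LPS list and 29 in the control list, where 29.7% and 37.5% of all genes did. These genes were not compared with others of the same input level, so the counts do not set the pathway apart. The 4 other adaptors all had one in the LPS list, and SARM1 and TIRAP did in the control list. TIRAP carried a 3′ UTR peak with a fold enrichment of 12.7 in the LPS and 18.2 in the control list, at similar input levels in both states. TRAF3 (3.05) and PIK3AP1 (1.56) had peaks in the LPS list only, beside higher input levels there. The 3′ UTR peak of SIGIRR had a fold enrichment of 19.1 in the LPS and 67.1 in the control list, and the 5′ UTR peak of CNPY3 one of 105 in the LPS and 47.6 in the control list. Both genes had lower input levels after LPS. TNIP2, whose input level was among the largest rises of the pathway, had 4 peaks in the LPS list, with fold enrichments of 1.63 to 3.63, and none in the control list.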

How the data were processed

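The tools named per the submitters' processing notes are ChIPseeker, HISAT2, HOMER and StringTie, without versions or roles. No source used here states the genome build, the peak caller or how replicates entered the peak lists. FPKM of 4 input libraries were deposited, and their treated columns are read as LPS because the labels give no other treatment. The authors also deposited 1 peak list for each state, in which every peak has a p-value and a fold, the ratio of IP over input. One entry repeated in each list was dropped. Libraries were strand-marked with dUTP per the labels' protocols; whether counting used strand is not stated.

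Under R 4.3.3, limma 3.58.1 with a trended prior variance was fitted to log2(FPKM + 1) of 2 LPS and 2 control input libraries. It covered the 9484 genes whose mean reached 1 FPKM, with Benjamini-Hochberg adjustment over all of them, two-sided. The fit was also run on simulated data with known changes and independent noise, as a check of the code alone. Relative depth came from the most frequent ratio of FPKM under 0.1 (10 to 12 genes). Peaks were shared where exon blocks overlapped by at least 1 base on the same strand (Python 3.11.15, pandas 2.3.3, numpy 2.4.6). Names missing from the table were matched through RefSeq accessions in a table of another assembly (GRCg7b). Of 62 marker names, 44 were matched; hepatocyte, macrophage, granulocyte and endothelial results are given beside the genes. T and NK markers had 0 higher and 2 lower of 6 tested (1 and 0 at equal medians), B cell markers 0 of 2 either way, thrombocyte markers 1 higher of 2, and the 1 erythrocyte marker was below the filter. These counts stand beside 10.7% higher and 31.4% lower among all tested genes, or 14.1% and 16.8% at equal medians. The 10 genes and the lists were chosen with earlier results of these data known; named were all 10, and at least the 3 largest called rises and falls in each role. Alternatives were equal medians, a pseudocount of 0.1, filters of 0.5 FPKM or none, leaving out each library, a replicate block, and stricter peak and overlap rules.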

Additional observations from a re-analysis of the deposited data

How the results depend on the processing

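Over 10 alternative fits, all 90 values of the 9 tested genes kept their direction and 13 changed their side of the threshold, in MYD88, TLR5, TLR3 and IRAK2. Genes lower after LPS numbered 2982 as deposited and 1594 at equal medians. The count of the set's genes that rose was 2, and 1 with any 1 library left out (range 1 to 1), since MYD88 lost its call each time. A fit that leaves 1 library in a group assumes that it varies like the other group. The fit with a filter of 0.5 FPKM and equal medians was added after seeing the data. The replicate numbers are not stated to pair libraries, and deviations of same-numbered libraries correlated at 0.029; with a replicate block 1071 genes rose and 3150 fell, and IRAK2 passed (adjusted p = 0.0431). Of the set's peaks, 1 of 3 in the LPS list and 2 of 5 in the control list had a fold enrichment of at least 4, in 1 and 2 genes, and 0 of those were shared. Of the control peaks 1 was shared when both had p of at most 1e-10, and 1 when at least 50% of both peaks had to overlap. Under both rules it was the peak of MYD88. With 2 libraries a group and FPKM near 1, small changes of the receptors are not resolved.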
